A study of Mus musculus with 20 samples.

Results

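The open chromatin of unmutated LSK cells (Lin-cKit+Sca1+ bone marrow cells, the compartment that holds mouse haematopoietic stem cells and multipotent progenitors) was described from the WT libraries, 4 of the 20 in the series. They were chosen by their genotype label, +/+;Vav-Cre: mice of the C57Bl/6J strain, aged 3 to 4 months, that carried Vav-Cre, a recombinase transgene active in blood cells, and none of the mutant Idh1, Idh2 or Tet2 alleles of the other 4 genotypes. Each library joined 2 mice, so the SD given below (n = 4) is the spread between pools of animals, and no value from the mutant libraries entered any measurement. ATAC-seq marks open DNA by the insertion of sequencing adapters with a transposase. The deposited peak set, common to the 20 libraries, held 125343 peaks with a median length of 515 bp. The libraries named WT1 to WT4 had 25998732, 24234557, 14513000 and 24342192 counts in them, WT3 being the shallowest. Accessibility is given as density: the CPM of a peak (its share of the library's counts in peaks, on the usual scale for sequencing depth) divided by its length in kb. How peaks of single libraries were joined into that set is not stated, and a site without a peak is one outside the set. With 4 libraries of 1 group no test between groups was made, and comparisons are between peaks or genes within a library.

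In mammalian cells the start sites of broadly used genes lie mostly in stretches rich in CG dinucleotides and are open in many cell types, whereas genes switched on in few cell types depend more on distant enhancers. Stem cells keep their state through a group of transcription factors that includes Gata2, Meis1, Mecom, Runx1, Tal1, Lyl1 and Erg. Kit, the receptor of stem cell factor, and Ly6a, which encodes Sca-1, are the surface markers by which LSK cells are sorted. Loci of later blood lineages are known to be partly open before their genes are fully expressed, a state called priming.

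To show what the measurements below refer to, RefSeq windows (GRCm38.p6, the assembly of the mm10 build; 250 bases before to 50 after the start) are printed for start sites that differ in accessibility or in base composition. Capitals mark a match on either strand to any of 11 short motifs. Those of blood cell regulators were searched as AGATAA for the GATA factors, as TGTGGT for the RUNX factors, as CAGCTG for the E-box bound by Tal1 and its relatives, and as TGANTCA for AP-1. The ETS family, which includes Etv6 and Fli1, was searched as CCGGAA. The other motifs were searched as GGGCGG for the GC box, as CCAAT for the CCAAT box and as TGACGT for the CRE core. The NRF1 core was searched as TGCGCA, the CTCF core as AGGGGGC and the TATA box as TATAAA. Matches to the GC box and the CTCF core can overlap, as they do in the Khsrp window. Runx1 and Gata2, each with a pair of start sites, are shown to compare starts of the same gene, Meis1 and Kit as other stem cell genes with an open start, Khsrp as the densest promoter of the data, and the liver gene Alb as a window without a peak.
Runx1 distal (chr16:92826025-92826324, - strand): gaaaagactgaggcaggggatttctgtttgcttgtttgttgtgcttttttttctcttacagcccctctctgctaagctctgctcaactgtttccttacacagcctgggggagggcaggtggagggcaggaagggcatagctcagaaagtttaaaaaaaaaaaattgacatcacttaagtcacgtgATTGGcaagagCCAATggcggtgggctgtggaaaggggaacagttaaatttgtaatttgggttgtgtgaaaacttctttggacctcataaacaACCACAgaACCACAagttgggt
Runx1 proximal (chr16:92697280-92697579, - strand): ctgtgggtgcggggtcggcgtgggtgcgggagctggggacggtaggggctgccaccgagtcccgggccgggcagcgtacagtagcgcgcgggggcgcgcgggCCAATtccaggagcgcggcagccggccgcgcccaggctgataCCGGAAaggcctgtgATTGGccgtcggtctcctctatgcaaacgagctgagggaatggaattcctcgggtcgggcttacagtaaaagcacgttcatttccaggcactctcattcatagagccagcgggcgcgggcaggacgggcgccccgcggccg
Gata2 upstream (chr6:88193641-88193940, + strand): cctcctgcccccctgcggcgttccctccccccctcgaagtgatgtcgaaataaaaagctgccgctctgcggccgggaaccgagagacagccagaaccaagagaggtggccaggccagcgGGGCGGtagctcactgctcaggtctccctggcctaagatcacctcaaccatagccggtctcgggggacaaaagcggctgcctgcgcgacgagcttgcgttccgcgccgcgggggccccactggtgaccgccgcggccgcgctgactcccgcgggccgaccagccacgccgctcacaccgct
Gata2 downstream (chr6:88198414-88198713, + strand): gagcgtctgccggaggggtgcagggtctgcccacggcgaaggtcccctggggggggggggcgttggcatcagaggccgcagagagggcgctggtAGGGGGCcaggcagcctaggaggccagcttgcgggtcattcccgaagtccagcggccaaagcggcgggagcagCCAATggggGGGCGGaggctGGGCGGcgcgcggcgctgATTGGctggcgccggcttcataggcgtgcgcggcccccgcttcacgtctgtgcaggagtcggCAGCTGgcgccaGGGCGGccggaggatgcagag
Meis1 (chr11:19018920-19019219, - strand): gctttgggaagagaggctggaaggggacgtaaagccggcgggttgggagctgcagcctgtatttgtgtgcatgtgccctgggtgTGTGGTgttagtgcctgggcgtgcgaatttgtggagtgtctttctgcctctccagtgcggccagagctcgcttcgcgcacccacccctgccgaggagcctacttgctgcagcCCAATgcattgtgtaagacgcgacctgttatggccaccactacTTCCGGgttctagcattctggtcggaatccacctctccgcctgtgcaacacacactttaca
Kit (chr5:75574737-75575036, + strand): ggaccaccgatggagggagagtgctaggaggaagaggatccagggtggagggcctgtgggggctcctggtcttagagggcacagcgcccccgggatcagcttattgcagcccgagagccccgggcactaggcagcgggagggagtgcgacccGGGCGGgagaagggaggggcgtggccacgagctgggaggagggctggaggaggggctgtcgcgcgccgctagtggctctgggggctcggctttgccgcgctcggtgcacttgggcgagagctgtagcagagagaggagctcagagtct
Khsrp (chr17:57031458-57031757, - strand): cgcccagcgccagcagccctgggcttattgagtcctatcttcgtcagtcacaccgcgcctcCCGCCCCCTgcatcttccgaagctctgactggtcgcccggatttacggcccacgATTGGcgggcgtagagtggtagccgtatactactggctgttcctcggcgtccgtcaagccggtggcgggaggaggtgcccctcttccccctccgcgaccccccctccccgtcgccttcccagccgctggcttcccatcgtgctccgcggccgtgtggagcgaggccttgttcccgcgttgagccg
Alb (chr5:90460620-90460919, + strand): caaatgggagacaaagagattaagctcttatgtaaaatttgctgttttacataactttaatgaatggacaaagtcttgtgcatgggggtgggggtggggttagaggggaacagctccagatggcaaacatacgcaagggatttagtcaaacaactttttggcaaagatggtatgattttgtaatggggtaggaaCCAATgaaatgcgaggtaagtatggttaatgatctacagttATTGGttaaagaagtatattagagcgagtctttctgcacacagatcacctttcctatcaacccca

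The libraries differed in places that their label does not explain. Peaks at Y-linked genes were near 0 in WT2 and WT4: the Ddx3y peak had 16.0, 0.0413, 15.8 and 0.0822 CPM in WT1 to WT4, and the Eif2s3y peak had 13.5, 0.0413, 13.4 and 0 CPM, where 3 counts correspond to 0.115 to 0.207 CPM. Xist, whose RNA coats the inactive X chromosome, showed the opposite pattern, with 5.12, 42.0, 5.93 and 39.9 CPM over its 5 peaks. Firre, a long non-coding RNA gene of the X chromosome, had 20.5, 242, 24.5 and 261 CPM over 21 peaks. WT2 and WT4 thus stood apart from WT1 and WT3 at these single genes, and the sex of the mice is not in the labels. Summed over the 27 Y peaks the separation was not seen (222, 244, 162 and 302 CPM), since 16 peaks beyond 90 Mb held 164, 244, 92.7 and 302 CPM of these sums. X-linked genes named below, such as Gata1 and Alas2, are read with this in view. Pearson correlations of log2 CPM between library pairs were 0.975 to 0.985 across peaks with a mean count of 20 or more, and the chi-square per degree of freedom, which sets a pair's difference against counting error only, was 1.70 to 2.08, so that no library was counted as a copy of another.

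**Figure D1:**
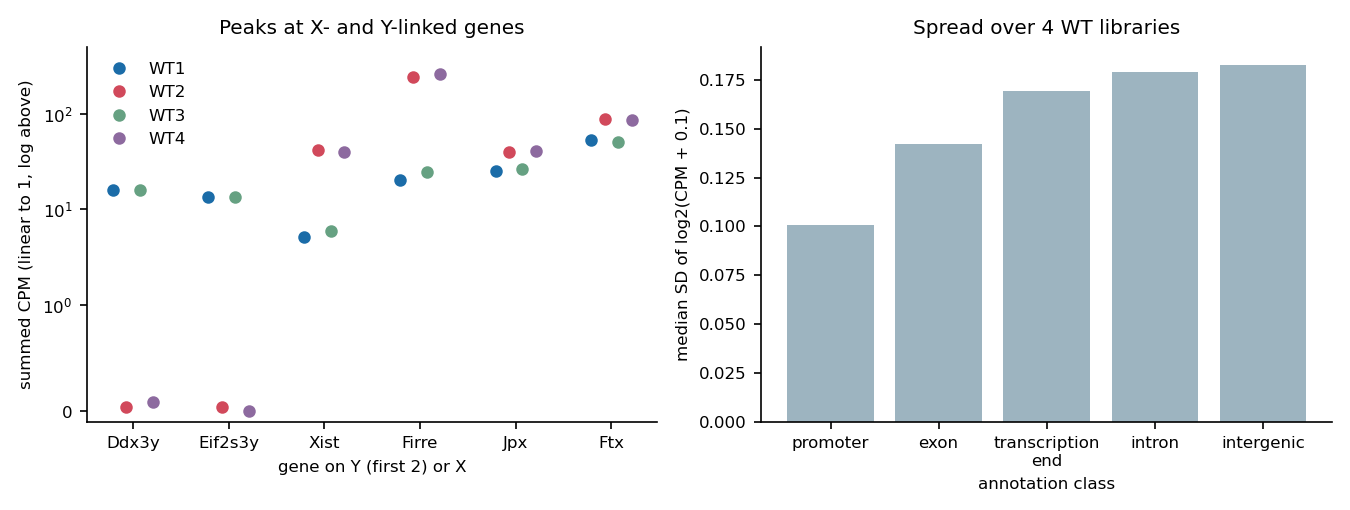
Left, summed CPM of peaks at 2 Y-linked and 4 X-linked genes in each WT library (scale linear up to 1 and logarithmic above). Right, median over peaks of the SD of log2(CPM + 0.1) across the 4 WT libraries, by annotation class; WT2 and WT4 lie apart from WT1 and WT3 at the genes shown, and promoter peaks have the smallest spread, 0.10.

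Promoter peaks were few and dense. The 15640 peaks of the promoter class made up 12.5% of peaks and 19.0% of the summed peak length, but took 41.1%, 41.8%, 40.6% and 41.8% of the counts of WT1 to WT4 (mean 41.3 ± 0.598%, SD, n = 4). The exact 95% binomial interval, which covers counting error only, was 41.04% to 41.08% in WT1, far narrower than the spread between libraries. Intron peaks, 41.9% of the set, took 26.7 ± 0.326% of counts, and intergenic peaks, 36.0% of the set, took 20.8 ± 0.276%. Exon peaks held 7.93 ± 0.0464% and peaks at transcription ends 3.20 ± 0.0274%. The order of the classes by their share of counts was the same in the 4 libraries.

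The median density of promoter peaks was 16.8 ± 0.297 CPM per kb, with 16.9, 17.1, 16.6 and 16.5 in WT1 to WT4. Exon peaks had 6.65 ± 0.199, peaks at transcription ends 5.24 ± 0.227, intron peaks 4.65 ± 0.218 and intergenic peaks 4.62 ± 0.215 CPM per kb. Intron and intergenic peaks therefore differed by less than their spread, while promoter peaks were 3.62 ± 0.204 times as dense as intron peaks and 3.64 ± 0.198 times as dense as intergenic peaks, higher in 4 of 4 libraries. Over exon peaks the ratio was 2.52 ± 0.0954. WT3 had the highest median outside promoters in each of the other 4 classes, for example 4.97 CPM per kb in introns against 4.50, 4.54 and 4.58 in the other libraries. Promoter peaks were also longer (median 871 bp, against 488 bp in introns and 479 bp in intergenic DNA), and density grew with length: its median was 3.33 CPM per kb in the 25% shortest peaks and 11.4 in the 25% longest. Among peaks of 300 to 1000 bp the ratios of promoter over intron and over intergenic were 2.75 ± 0.120 and 2.69 ± 0.115, and with no division by length they were 6.92 ± 0.381 and 7.04 ± 0.321.

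The promoter class itself was mixed. Its density was 5.78 CPM per kb at the 25th percentile and 37.4 at the 75th. Promoter-class peaks within 1 kb of a RefSeq protein-coding start (10958) had a median of 24.7 ± 0.585 CPM per kb, and the other 4682 had 6.28 ± 0.203. A peak of another class at such a start was denser than its class elsewhere: exon peaks had 13.8 ± 0.320 at a start and 5.16 ± 0.248 elsewhere, and intron peaks had 11.8 ± 0.302 and 4.52 ± 0.217. These starts lie in exons or introns as the deposited annotation draws them, and the start sites of Kit, Flt3 and Spi1 are among them. Of the densest 10% of peaks (12535 peaks of 23.6 CPM per kb or more, with 53.8 ± 0.779% of counts), 50.4% were of the promoter class, 22.1% of the intron class and 16.2% intergenic. As a share of each class, 40.4% of promoter peaks, 15.0% of exon peaks, 7.51% of peaks at transcription ends, 5.27% of intron peaks and 4.50% of intergenic peaks were in it.

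Accessibility fell off within the first kb from a start site and then slowly. By the annotated distance of the peak centre to the nearest start, the median density was 24.0 ± 0.497 CPM per kb at 0 to 0.1 kb, 16.9 ± 0.354 at 0.1 to 0.5 kb and 6.95 ± 0.144 at 0.5 to 1 kb. It was 6.36 ± 0.137 at 1 to 5 kb and 4.91 ± 0.191 at 5 to 10 kb. At 10 to 50 kb, where 41.7% of peaks lie, it was 4.45, 4.52, 4.92 and 4.52 in WT1 to WT4. Farther out it was 4.26 ± 0.247 at 50 to 100 kb and 3.94 ± 0.279 beyond 100 kb. The order of these 8 medians was the same in each library. The density at 0 to 0.1 kb was 6.12 ± 0.519 times that beyond 100 kb. Peaks outside the promoter class followed the same course from 13.6 ± 0.351 CPM per kb at 0.1 to 0.5 kb to 3.93 ± 0.283 beyond 100 kb. The upstream side had a slightly higher mean than the downstream side in each of the 7 bins beyond 0.1 kb: 17.3 ± 0.371 upstream and 16.6 ± 0.309 downstream at 0.1 to 0.5 kb, 5.10 ± 0.173 and 4.75 ± 0.199 at 5 to 10 kb, and 3.98 ± 0.280 and 3.92 ± 0.287 beyond 100 kb. From 5 kb outward neighbouring medians differed by 1 to 2 SD over libraries, a gap that is small beside the fall within the first kb. The distance column and the class do not always match, since 11293 of the 15640 promoter-class peaks have an annotated distance within 1 kb.

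**Figure D2:**
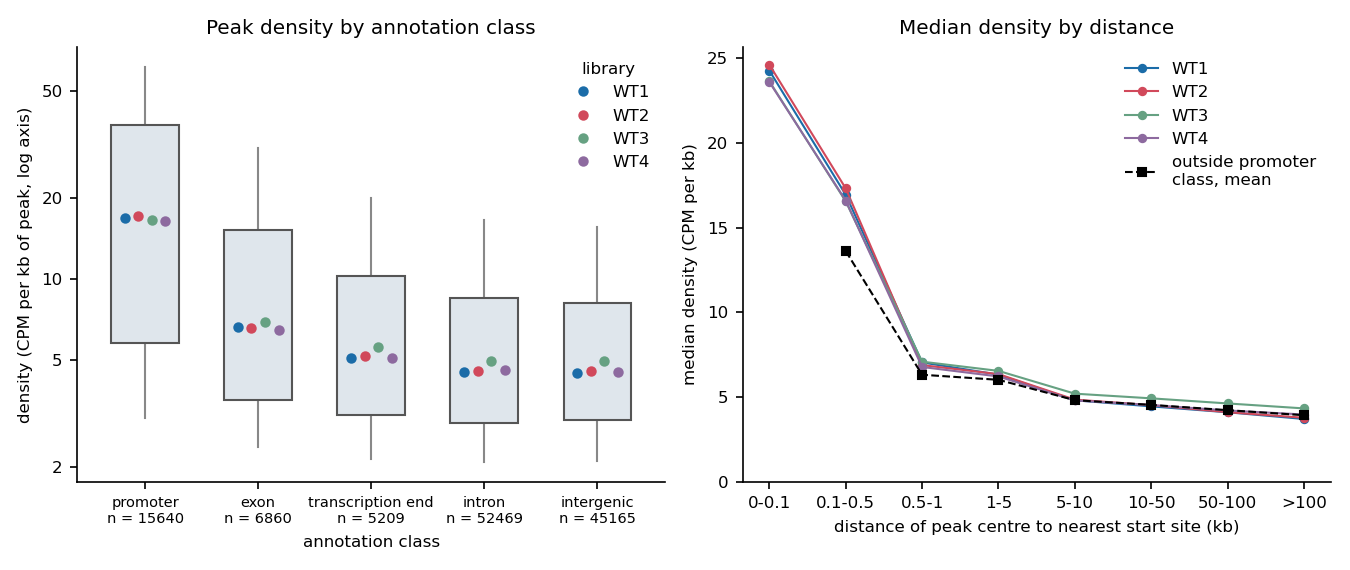
Left, density (CPM per kb, log axis) by annotation class: boxes span the 25th to 75th percentile of peak means, lines the 10th to 90th, and points are the median of each WT library. Right, median density by distance of the peak centre to the nearest start site (kb) in each library, with the mean over libraries for peaks outside the promoter class (dashed, which has no peak at 0 to 0.1 kb); density is 24.0 CPM per kb at the start and 3.94 beyond 100 kb.

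The densest single peaks lay mostly at start sites. The highest density of all was at a peak in an exon of Lars2, which encodes the mitochondrial leucyl-tRNA synthetase (chr9:123461798-123462184), with 198, 218, 237 and 205 CPM per kb in WT1 to WT4. Next came the promoter of Khsrp, a regulator of RNA decay and splicing (chr17:57031367-57032339), with 195, 201, 218 and 236 CPM per kb. Their values overlap, the Lars2 peak being the higher one in 3 of 4 libraries. The promoters of Ubxn6 (188 ± 15.2 CPM per kb), the sterol-binding protein gene Osbp (166 to 192 over libraries), the aspartyl aminopeptidase gene Dnpep (178 ± 14.2), the phosphatase gene Mtmr4 (171 ± 11.7), the repressor gene Cic (168 ± 9.51), Ski, an inhibitor of TGF-beta signalling (168 ± 12.4), and the clathrin adaptor gene Ap2a1 (167 ± 13.3) followed. An intron-class peak of Ing1, a chromatin reader, had 169 ± 9.41. Among these 10 peaks 9 lay at a RefSeq start and 8 were of the promoter class, to which 12.5% of all peaks belong. By gene, Sp1, the factor that binds GC boxes, was the ninth of the promoters, with 166 ± 9.90 CPM per kb.

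Dense peaks outside the promoter class were often starts too: 7 of the 10 densest intron peaks and 4 of the 10 densest intergenic peaks lay within 1 kb of a RefSeq start. Of all intron peaks 4.49% lay there, and of all intergenic peaks 1.23%. The intron peaks at starts belonged to Ing1, the corepressor gene Sin3a (145 ± 3.51 CPM per kb), Fkbp2 (141 ± 4.19), Lrp8 (109 ± 5.17), Sap130 (107 ± 6.26), the Myc antagonist Mnt (107 ± 2.85) and Rnf138 (104 ± 5.67). The 3 away from starts were in Clec11a, which encodes a growth factor of bone marrow (136 ± 9.14), in Vav1, a signalling gene of blood cells (chr17:57290002-57291273, with 131, 131, 135 and 130 CPM per kb in WT1 to WT4), and beside Myl12b (110 ± 9.75). The Vav1 peak varied little between libraries. The labels name Vav as the source of the Cre transgene, and whether transgene copies add reads at Vav1 was not tested. The densest intergenic peaks lay near Wnt7b, a secreted signal (149 ± 6.02 CPM per kb), Nr4a3, an early-response receptor gene (131 ± 9.15), and Zfp36, which encodes an RNA-decay factor (120 ± 9.48). Those near Gsk3a, Ptpdc1 and Bri3bp had 111 ± 7.41, 110 ± 5.37 and 108 ± 6.00, and 4 peaks at the starts of Zfp317, Zfp869, Zfp78 and Fbrs had 109 to 116 CPM per kb.

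Runx1 was among the 10 genes with most signal outside promoters. Summing the CPM of the peaks outside the promoter class that lie in a gene or nearest to it, Zfp36l2, an RNA-decay factor that stem and progenitor cells require, had 849, 847, 865 and 887 CPM over 40 peaks in WT1 to WT4. Gse1 followed with 855 ± 26.6 CPM, Zmiz1, a coactivator, with 687 ± 18.8, and Arid1b, a subunit of the SWI/SNF remodeller, with 658 ± 8.71. Maml3, a Notch coactivator, had 547 ± 16.8, Runx1 516 ± 14.9, Tex14 516 ± 26.5, Haao 508 ± 12.8 and the X-linked corepressor gene Bcor 495 ± 24.4 CPM. Haao and Zfp36l2 both lie on chromosome 17, and a name given here marks a neighbour, not a regulated gene. Sfi1, a gene of the centrosome, was uneven: it had 461, 645, 824 and 609 CPM in WT1 to WT4, highest in WT3. The other 9 had an SD of at most 26.6 CPM, against 149 CPM for Sfi1. Long genes gather more peaks, and the sums are not divided by gene length.

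Gata2, Meis1, Mecom, Kit and Runx1 mark LSK cells. Their peaks include those outside the gene to which the gene is the nearest one. Inside the gene lay 4 of 10 Gata2 peaks, 26 of 64 Meis1 peaks and 52 of 55 Mecom peaks. For Kit it was 17 of 46 and for Runx1 49 of 103. A Meis1 peak lay as far as 529 kb from the start, so counts and sums also depend on the room between neighbouring genes. Among the densest 10% of all peaks were 8 of 103 Runx1 peaks, 4 of 64 Meis1 peaks and 2 of 10 Gata2 peaks. Kit had 2 of 46 peaks there and Mecom 1 of 55. Of these shares only that of Gata2 was above 10%. Gata2, a zinc finger factor needed for stem cell maintenance, is a short gene (13.1 kb) with 10 peaks. Its densest peak lay in an intron 9.42 kb inside the gene (chr6:88202929-88203690), with 34.6, 32.7, 33.6 and 34.3 CPM per kb in WT1 to WT4. The peak 4.13 kb upstream had 28.3 ± 1.92 CPM per kb. Its 2 starts, in the windows printed above, had 19.4, 16.6, 17.8 and 18.2 CPM per kb (upstream start) and 19.8, 21.3, 18.3 and 22.3 (downstream start), the downstream one being the denser in 4 of 4 libraries. In CPM, not divided by length, the order of their means was the reverse, with 19.8 ± 1.25 (upstream) and 18.6 ± 1.59 (downstream). Both starts were less dense than the intron peak in 4 of 4 libraries.

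Runx1, the factor required for the first stem cells of the embryo, had 103 peaks and 635, 603, 604 and 602 CPM in all in WT1 to WT4. It had 100 peaks outside promoters, and 4 protein-coding genes had more. The densest was an intron peak 3.77 kb inside the distal start (chr16:92821844-92822765), with 49.4, 45.3, 47.0 and 50.3 CPM per kb. Other intron peaks at 24.7 kb and 205 kb had 42.2 ± 1.74 and 43.0 ± 1.62. The distal start had 41.4, 37.7, 43.1 and 43.4 CPM per kb in WT1 to WT4, and the proximal start had 23.4, 24.1, 20.6 and 22.6, below the distal one in each library. This order depended on the division by length, the proximal peak being 2348 bp long and the distal one 966 bp. In CPM the proximal start was the higher in each library, with 53.2 ± 3.51 against 40.0 ± 2.51. The proximal window is the one rich in CG. It has 35 CG dinucleotides and 69.0% G and C, against 2 CG dinucleotides and 45.0% in the distal window. The distal window holds a pair of RUNX motif matches and 2 CCAAT box matches, the proximal one an ETS match and 2 CCAAT box matches.

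Meis1, a homeodomain partner of Hox proteins, had 64 peaks and 383 ± 6.96 CPM. Intron peaks 94.0 kb and 48.8 kb from its start (chr11:18924598-18925416 and chr11:18969728-18970665) had 42.2 ± 1.79 and 41.3 ± 1.20 CPM per kb, and the start had 30.1 ± 0.510. The 2 intron peaks overlapped each other in density and exceeded the start in density in 4 of 4 libraries. Not divided by length, the longer start peak (1567 bp) was the higher, with 47.2 ± 0.799 CPM against 34.6 ± 1.46 and 38.8 ± 1.12. Kit had 46 peaks and 249 ± 5.74 CPM. Its densest peak lay 156 kb downstream of the start, beyond the end of the gene (chr5:75730413-75731571), with 50.4, 53.3, 54.9 and 55.3 CPM per kb in WT1 to WT4, and its start, classed as intron, had 42.7, 41.6, 41.5 and 43.9. In CPM, not divided by length, the Kit start was the higher in each library, with 65.9 ± 1.72 against 62.0 ± 2.59. The next Kit peak in order of density had 12.9, 12.3, 11.8 and 11.1 CPM per kb, so that 2 sites stood above the rest. Mecom, a zinc finger factor of stem cells, had 55 peaks and 238 ± 8.10 CPM, with no promoter-class peak. Its densest peak, 1.41 kb inside the upstream start (chr3:30507072-30509629), had 32.4 ± 0.722 CPM per kb and did not reach the start itself. The downstream start had 7.49 ± 1.07. Across the 5 genes most peaks were weak, with medians of 3.35 to 4.04 CPM per kb for Meis1, Mecom, Kit and Runx1, below the median of all peaks (5.12 ± 0.205), and 14.6 for Gata2.

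**Figure D3:**
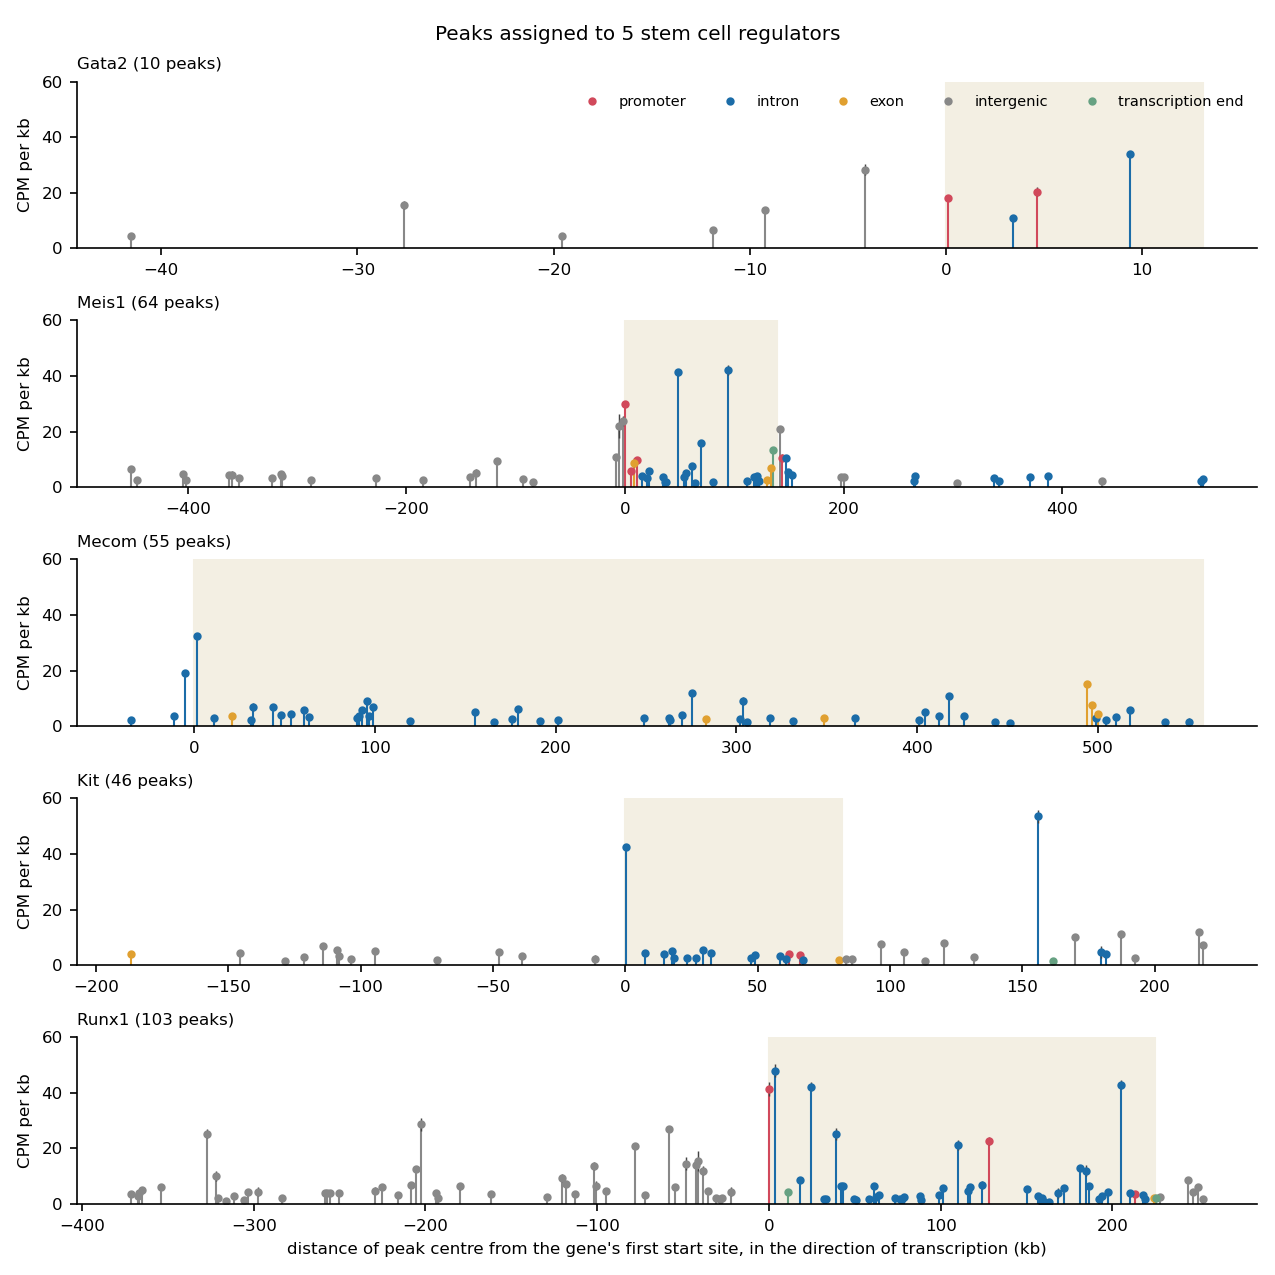
Peaks assigned to Gata2, Meis1, Mecom, Kit and Runx1, by distance of the peak centre from the first start site in the direction of transcription (kb; scales differ) and density (CPM per kb, mean over 4 WT libraries, bars SD). The shaded span is the gene and colours are annotation classes; the Kit peak at 156 kb (53.5 CPM per kb) and the start (42.4) stand above its other peaks.

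Stem cell genes had promoters about as open as those of all genes, and more open chromatin around them. Per gene, the densest promoter-class peak within 1 kb of a RefSeq start was taken. The stem cell list had such a peak at 20 of 28 genes (46.8% of 21900 protein-coding genes had one), and its median density was 28.2, 26.9, 26.2 and 28.4 CPM per kb in WT1 to WT4, against 26.4 ± 0.750 over the 10260 genes with a promoter peak. The ratio was 1.04 ± 0.0499, above 1 in 3 of 4 libraries, and it turned below 1 when all promoter peaks of a gene were summed (0.904) or when an annotated distance within 1 kb replaced the class (0.696). Of the 20 genes, 3 were in the top 25% of all genes. Outside promoters, the stem cell list had a median of 67.6, 67.5, 72.2 and 68.5 CPM per gene in WT1 to WT4, against 8.31 ± 0.271 for all genes, a ratio of 8.30 ± 0.112. Genes without such a peak entered these medians as 0: 4105 of 21900 protein-coding genes had no peak at all, against 0 of 28 stem cell genes. Of the 28 genes, 15 had 10 or more peaks outside promoters, against 15.7% of all genes. In bulk libraries a level set by the number of cells of a type and one set by open DNA per cell cannot be told apart. The listed genes are longer (median 29.0 kb, against 17.1 kb for all), and per 100 kb of gene they held a median of 14.3 peaks outside promoters, against 3.52. An excess over all genes was not particular to them. Multipotent progenitor genes had 21.7, B cell genes 11.8, T and NK cell genes 8.52 and stroma and endothelium genes 7.35. Only the lists of other tissues and of housekeeping genes were below all genes, with 0.725 and 0. Per kb of peak the stem cell median was 8.71 CPM, against 7.08 for all genes.

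Within the stem cell list the promoters ranged over more than an order of magnitude. Lyl1, a basic helix-loop-helix factor, had 107, 110, 106 and 116 CPM per kb in WT1 to WT4, and the repressor gene Etv6 had 56.3 ± 1.85. At the low end were Tek, the angiopoietin receptor gene, with 2.70 ± 0.191, and Ly6a with 3.11, 2.87, 2.63 and 2.12 CPM per kb. The promoter-class peak taken for Ly6a, the gene of a sorting marker of these cells, was on average thus below the 10th percentile of its class (3.04 CPM per kb). This peak (chr15:74998748-74999191) was taken as lying within 1 kb of a start. Whether it covers the Ly6a start was not tested. Ly6a lies among similar Ly6 genes, and whether reads shared between near copies alter its value was not tested. Of the 8 stem cell genes without a promoter-class peak, each had a peak of another class whose nearer edge lay within 1 kb of a start, the densest at Kit (42.4 ± 1.11), Mecom (32.4 ± 0.722) and Erg (16.6 ± 0.862). The next dense site of Hlf, a stem cell leucine zipper factor, was intergenic (chr11:90417732-90418357) with 44.8 ± 2.39 CPM per kb, and Erg had 45 peaks and 283 ± 8.51 CPM outside promoters.

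The 14 multipotent progenitor genes were close to the stem cell genes at promoter-class peaks and higher by the other measures. Their median promoter density was 27.3 ± 1.56 CPM per kb (11 genes with a peak), and stem cell over progenitor gave 1.01 ± 0.0614. With a peak of any class at the start, which 14 of 14 genes had against 64.9% of all genes, the ratio to all genes was 1.32 ± 0.0412, and stem cell over progenitor gave 0.778 ± 0.00962, below 1 in 4 of 4 libraries. Outside promoters they had 115 ± 2.93 CPM per gene, more than the stem cell list in 4 of 4 libraries (stem cell over progenitor 0.598 ± 0.0323), and 11 of 14 had 10 or more such peaks. The start of Flt3, the receptor that marks progenitors on the way to the lymphoid lineage, was the densest start of the list (chr5:147399921-147400712, exon class), with 101, 91.2, 105 and 101 CPM per kb in WT1 to WT4. The proto-oncogene Myc had 76.5 ± 5.52, Cebpa, the myeloid factor, 42.3 ± 3.73 and Ikzf1, the lymphoid factor Ikaros, 33.8 ± 2.61 CPM per kb. Cd27, Csf3r (the G-CSF receptor) and Cd48 were lowest, with 11.1 ± 0.457, 9.61 ± 0.899 and 7.22 ± 0.376. Sox4 and the cell cycle kinase gene Cdk6 had 363 ± 8.54 and 341 ± 4.01 CPM outside promoters.

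Genes of single lineages had lower median promoter densities than stem cell genes and higher medians than all genes outside promoters. The excess outside promoters was found for lists of unrelated cells too, as given below. Myeloid genes (18 of 25 with a promoter peak) had a median of 12.5 ± 1.45 CPM per kb, 0.474 ± 0.0452 of the median of all genes, and 29.8 ± 2.52 CPM outside promoters. Klf4, a monocyte factor, was highest with 47.9 ± 4.36 CPM per kb, before Irf8, the factor of monocytes and dendritic cells, with 22.1 ± 1.60, and Itgam, which encodes CD11b, with 20.7 ± 1.06. The granule and calcium-binding protein genes S100a8 and Camp had 3.65 ± 0.919 and 2.97 ± 0.745, and F13a1 had 2.93 ± 0.242. The start of Csf2ra, the GM-CSF receptor gene, was classed as intron and had 61.3, 63.4, 53.8 and 57.3 CPM per kb in WT1 to WT4, above the promoter peaks of the list. Prtn3, a neutrophil protease gene, had no start peak but an intron-class peak of 37.1 ± 1.87 CPM per kb.

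Erythroid genes (16 of 25 with a promoter peak) split most widely. The highest members were Nfe2, a partner of small Maf proteins, with 123 ± 6.46 CPM per kb, Zfpm1, the partner of GATA factors, with 89.3 ± 6.21, and Tfrc, the transferrin receptor gene used by dividing cells, with 72.5 ± 2.80. The start of Klf1, the erythroid master factor, classed as exon, had 46.4 ± 1.43. Among the lowest members Trim10 had 3.66 ± 1.12, and Alas2, the erythroid enzyme of haem synthesis, had 0.576, 1.70, 1.55 and 2.00 CPM per kb. The promoter of Gata1, the main erythroid factor, had 3.13, 3.02, 2.98 and 1.91 CPM per kb in WT1 to WT4, far below either Gata2 start in each library. The list's median was 7.80 ± 0.274 CPM per kb, 0.296 ± 0.00673 of the median of all genes. That ratio was 0.975 ± 0.0569 when peaks of 300 to 1000 bp alone were used, which left 9 members. Outside promoters the list had 19.6 ± 1.12 CPM per gene, 2.36 ± 0.156 times all genes.

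Megakaryocyte genes (12 of 24) had a median of 14.5 ± 0.723 CPM per kb, 0.550 ± 0.0252 of all genes (0.873 ± 0.0542 over 6 members with peaks of 300 to 1000 bp). The thrombin receptor gene F2r had 65.3 ± 1.72, Itga2b, which encodes CD41, had 37.2 ± 2.11, and Plek had 34.9 ± 2.19 CPM per kb. The lowest members were the platelet protein genes Gp5 with 7.92 ± 0.384, Tubb1 with 5.19 ± 0.773 and Vwf with 3.10 to 4.10 over libraries. The densest peak of the list outside promoters was in an intron of Selp, the P-selectin gene (chr1:164135198-164136282), with 72.3, 69.7, 69.5 and 73.2 CPM per kb in WT1 to WT4, while the Selp start had 4.17 ± 0.175. Lymphoid priming genes (13 of 18) had a median of 9.40 ± 0.615 CPM per kb, 0.357 ± 0.0307 of all genes. The factor genes Mef2c and Tcf3 had 73.5 ± 2.27 and 56.2 ± 2.66 CPM per kb, and Bcl11a had 25.5, 26.0, 18.3 and 25.6. Ccr9 had 4.31 ± 1.45, the recombinase gene Rag1 had 4.26 ± 1.02 and Ly6d had 3.34 ± 1.87. Dntt, which encodes the terminal transferase of early lymphoid cells, had no start peak, but 11 peaks and 107 ± 4.53 CPM outside promoters.

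Set against the 4 lineage lists within each library, the stem cell list was higher in 4 of 4 libraries, both at promoters and in summed CPM outside them. At promoters its median was 2.21 ± 0.236 times that of the myeloid list, 3.52 ± 0.228 times the erythroid, 1.89 ± 0.0580 times the megakaryocyte and 2.93 ± 0.256 times the lymphoid priming list. With peaks of 300 to 1000 bp alone these gaps at promoters closed for 2 lists: the ratio to all genes was then 1.01 ± 0.0855 for the stem cell list (12 members), 0.975 ± 0.0569 for the erythroid and 0.873 ± 0.0542 for the megakaryocyte list, while the myeloid and lymphoid priming lists had 0.388 ± 0.00566 and 0.406 ± 0.0409. Outside promoters the stem cell ratios were 2.33 ± 0.191, 3.53 ± 0.266, 2.43 ± 0.101 and 2.29 ± 0.206. These sums are not divided by gene length. Its median was 29.0 kb in the stem cell list and 4.78, 19.0, 15.9 and 24.1 kb in the lineage lists, in the same order. Per 100 kb of gene the stem cell list held a median of 14.3 peaks, against 8.87, 9.48, 11.4 and 11.6. Per kb of peak its median was 8.71 CPM, against 8.37, 7.72, 9.64 and 6.85, so that the megakaryocyte list was then higher. Among the 4 lineage lists the outside medians of the myeloid, megakaryocyte and lymphoid priming lists (28.4 to 30.3 CPM) differed by less than the largest of their SDs, and the erythroid list was lowest. The width limit brought the myeloid ratio outside promoters to 2.00 ± 0.161 times all genes, against 3.58 ± 0.281 without it. Members in the top 25% by promoter density numbered 1 of 18 myeloid, 3 of 16 erythroid, 1 of 12 megakaryocyte and 2 of 13 lymphoid priming genes, each below the 25% of all genes. Genes with 10 or more peaks outside promoters numbered 8 of 25, 6 of 25, 8 of 24 and 8 of 18 in the same lists, each above the 15.7% of all genes. Lists of other cell types exceeded it too: T and NK cell genes with 8 of 20, stroma and endothelium genes with 6 of 20 and B cell genes with 4 of 16. Mast cell, basophil and eosinophil genes, with 2 of 12, were near that share.

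Genes of cell types beyond the LSK lineages had lower median promoter densities than all genes (26.4 CPM per kb), as the 4 lineage lists had. By promoter-class peaks the B cell median was near the myeloid one (12.5) and above the erythroid (7.80) and lymphoid priming (9.40) ones. The T and NK cell median was near the erythroid one. The mast cell, stroma and other-tissue medians lay below those of the lineage lists. B cell genes had a promoter peak at 4 of 16 members (median 12.3 ± 0.977 CPM per kb), and with a peak of any class at the start 9 of 16 (5.87 ± 0.411). Cd79a and Vpreb1, of the B cell receptor, had no peak in or nearest to the gene, and Pax5, the factor of B cell identity, had 3.43 ± 0.623 CPM per kb, while Cr2, a complement receptor gene, had 24.0 ± 1.13, near the median of all genes. T and NK cell genes had a median of 8.02 ± 1.11 over 12 of 20 members, with Cd28, a costimulatory receptor gene, highest at 18.7 ± 1.56, and Cd3g, Cd8a and Gzma had no peak. Mast cell, basophil and eosinophil genes had 4.99 ± 0.449 (6 of 12), with the mast cell factor Mitf at 41.4 ± 1.12, and stroma and endothelium genes 5.89 ± 0.139 (10 of 20), with Pdgfrb at 23.0 ± 2.39. Genes of other tissues had a promoter peak at 5 of 26 members, with a median of 3.83 ± 0.885 CPM per kb, and 0 of 26 had 10 or more peaks outside promoters. None of the members of these 5 lists was in the top 25% by promoter-class density. Outside promoters the medians of these lists were 31.8 ± 0.653 CPM per gene for stroma and endothelium, 27.4 ± 1.24 for T and NK cells, 15.5 ± 1.34 for B cells, 12.3 to 14.2 over libraries for mast cells, basophils and eosinophils and 4.78 ± 0.277 for other tissues, against 8.31 ± 0.271 for all genes. The stroma and T and NK cell lists were thus at the level of the myeloid, megakaryocyte and lymphoid priming lists. Single dense sites were present: an intron-class peak nearest to Gata3, a T cell factor that stem cells also use (chr2:9593749-9594535), had 80.9 ± 7.67 CPM per kb, a Runx2 intron had 55.8 ± 1.97 and an intergenic site near the NK cell receptor gene Klrb1c had 50.6 ± 1.16. The site assigned to Gata3 lies far from that gene's promoter-class peak (chr2:9878328-9878964). Whether a share of other cells in the sort adds to any of these values was not tested.

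Housekeeping genes had denser promoters than stem cell genes and a lower median of summed CPM outside them. Their median promoter density was 66.1 ± 1.82 CPM per kb (16 of 21 with a promoter-class peak), 2.51 ± 0.0994 times all genes, and 10 of 16 were in the top 25%. The stem cell list had 0.415 ± 0.0259 of their promoter density, lower in 4 of 4 libraries, and 13.6 ± 1.15 times their CPM outside promoters, higher in 4 of 4. Actb had 105 ± 4.63, the ribosomal protein genes Rpl13a and Rplp0 had 89.7 ± 3.19 and 84.8 ± 2.90, and the lowest, Sdha of the respiratory chain, had 26.4 ± 1.25 CPM per kb. Outside promoters the median was 5.10 ± 0.320 CPM per gene, below the 8.31 of all genes. Still, 7 of 21 housekeeping genes were in the top 25% of all genes by this sum, as were 18 of 28 stem cell genes. Per kb of these peaks the list medians were 10.8 CPM (housekeeping) and 8.71 CPM (stem cell), against 7.08 CPM for all genes.

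**Figure D4:**
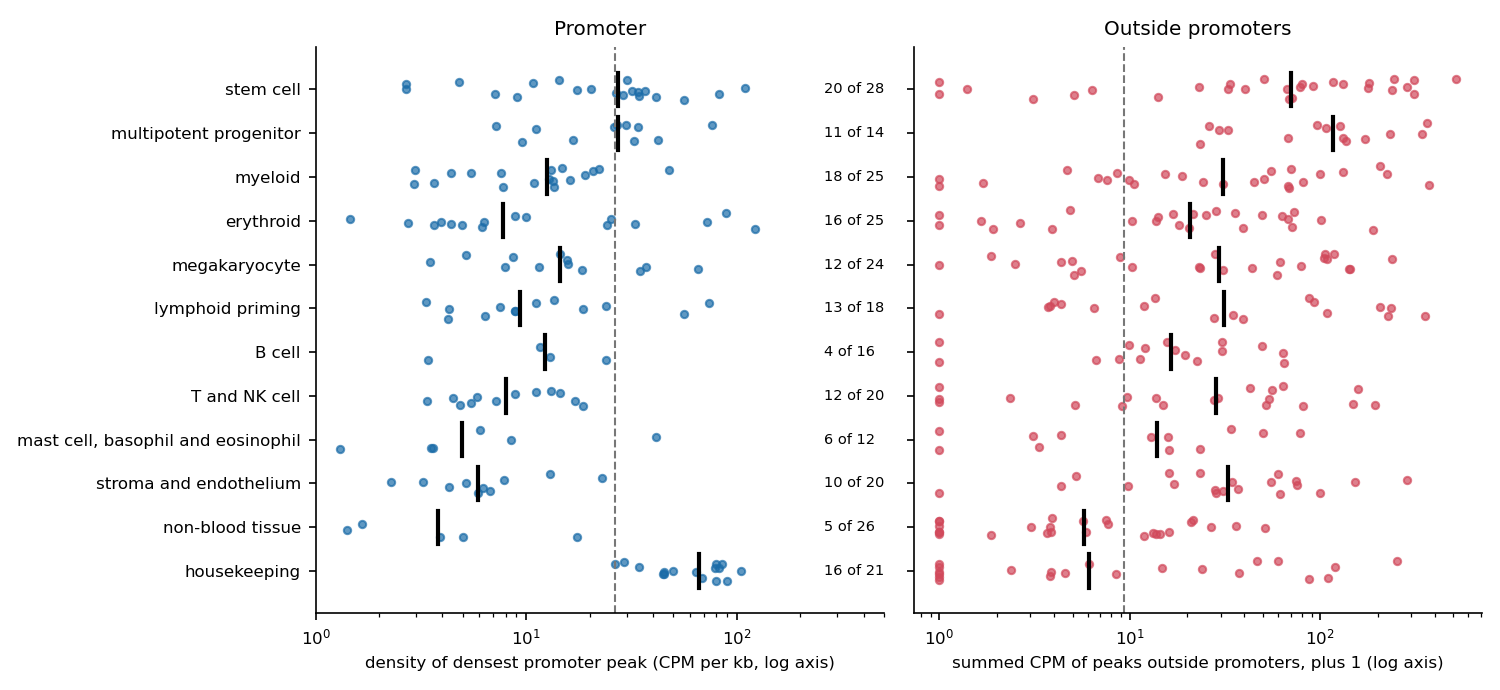
Each point is a gene of the list named at the left: density of its densest promoter-class peak (left, CPM per kb, log axis, with the number of genes that have one) and summed CPM of its peaks outside promoters plus 1 (right, log axis), as means over 4 WT libraries. Black bars are list medians and dashed lines the median of all protein-coding genes. The stem cell median lies near the line on the left (27.4) and right of it on the right (69.0 CPM). The housekeeping median lies right of the line on the left (66.1) and left of it on the right (5.10).

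The letters of start-site windows varied with accessibility. RefSeq windows of protein-coding genes (21238) were ranked by the densest overlapping peak, and the densest 10% (1370) were set beside the least dense 10% (1370) and the 7546 without a peak. The GC box was present in 80.1% of the densest, 48.0% of the least dense and 11.8% of the windows without a peak, against 46.2% of all. The CCAAT box was in 58.2%, 31.1% and 40.4% (38.2% of all), and the ETS motif in 30.8%, 8.25% and 4.92% (18.7% of all). The NRF1 core was in 15.8%, 6.64% and 2.84%, the CRE core in 14.1%, 5.84% and 3.64%, and the CTCF core in 20.5%, 14.5% and 5.08%. These motifs were thus commonest in the densest windows. The GATA, RUNX and AP-1 motifs ran the other way: GATA was in 3.14%, 9.64% and 16.3%, RUNX in 8.69%, 13.4% and 20.0%, and AP-1 in 2.85%, 8.25% and 11.1%. The TATA box was in 4.23%, 9.27% and 23.7%, and the E-box in 10.7%, 20.5% and 16.4%. Base composition moved with these shares: the median G and C content was 64.3%, 58.3% and 46.7%, and the median number of CG dinucleotides was 25, 12 and 3 per window. Its part in the motif shares was not tested. In the printed windows the Khsrp start, at 212 ± 18.6 CPM per kb, has 32 CG dinucleotides, and the Alb window without a peak has 3. A motif match is a run of letters and not a bound site.

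**Figure D5:**
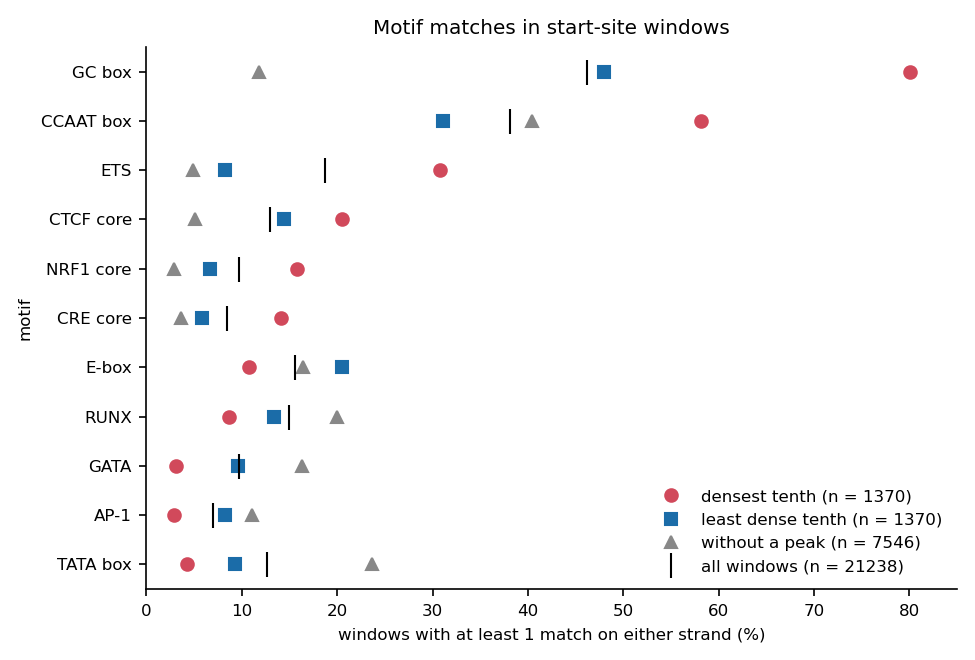
Share of RefSeq start-site windows with at least 1 match to each motif on either strand (%), for the densest 10%, the least dense 10%, windows without a peak and all windows. The GC box ranges from 80.1% in the densest to 11.8% without a peak, and the GATA, RUNX, AP-1 and TATA box shares run in the opposite order.

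The 4 libraries agreed most closely at promoters. Over 102981 peaks with a mean count of 20 or more, the median SD of log2(CPM + 0.1) was 0.10 for promoter peaks, against 0.14 in exons, 0.17 at transcription ends, and 0.18 in introns and in intergenic DNA. Depth moved with this spread: by mean count, the median SD was 0.27 in the lowest 25% of peaks and 0.09 in the highest 25%. The common biological coefficient of variation estimated by edgeR was 7.32%. The 10 most variable peaks were all on Y (4) or X (6), at Eif2s3y, Ddx3y, Uty, Xist, Firre and a few other loci, with the division of WT2 and WT4 from WT1 and WT3 given above. Among the 100 most variable autosomal peaks, 60 were highest in WT3. These included 12 of the 186 tested peaks on chromosome 1 between 84 and 87 Mb, the 100 being drawn from the autosomal part of the 102981 peaks. An intron peak there, of the interferon-induced gene Sp140, had 1.08, 1.44, 8.13 and 1.97 CPM in WT1 to WT4. The share of all tested peaks that were highest in WT3 is not given here, so the 60 have no reference share. WT3 also had the highest median density in each class outside promoters. Neighbouring Sfi1 peaks recurred among the 100 and were highest in WT3, so that the 60 peaks stand for fewer loci. A Sfi1 promoter-class peak (chr11:3170641-3171462) had 3.46, 6.19, 22.7 and 5.18 CPM. A Sfi1 intron peak (chr11:3181940-3182901) had 3.77, 5.74, 22.7 and 5.55 CPM. WT3 was the shallowest library, and whether its depth plays a part was not tested.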

How the data were processed

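The submitters' processing notes name the trimmer Trim Galore, the aligner BWA, Picard and SAMtools, the peak caller MACS2 and the counter featureCounts, with build mm10. No version, setting or order of steps is stated there, nor whether read ends were moved to the insertion site. The authors deposited raw counts per peak of a common peak set, and a table that gives each peak a class, a distance to the nearest start and Ensembl identifiers without symbols. Only the 4 WT columns were used. Counts were divided by the column sum (CPM) and by peak length. Shares are percent of the counts in peaks.

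Promoter peaks took the nearest start of 21900 protein-coding RefSeq genes (GRCm38.p6) within 1000 bp. Starts came from RefSeq windows for 17492 genes, and otherwise from the gene end that the deposited distances point to, a rule that was right in 96.1% of 9639 calls that could be checked. Other peaks took the gene holding their centre, or else the nearest one. Of 250 listed genes, 249 were placed.

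The 12 lists and the named genes were chosen with earlier results of these data known. Named were the 10 densest peaks (all, intron, intergenic), the 10 genes with the densest promoters and with most CPM outside promoters, the 3 highest and lowest members per list, the markers and the 10 most variable peaks. Predicted gene models were left out, and some members that this rule names are not reported here. Other genes, among them Flt3, Csf2ra, Klf1, Selp, Gata3, Dntt, Prtn3, Klrb1c, Runx2 and Sp140, were chosen after their values were seen. Spread was estimated with edgeR 4.0.16 in R 4.3.3 (TMM, intercept fit, tested on simulated data), and the rest with Python 3.11.15 and pandas 2.3.3. No group contrast was made. Alternatives were TMM scaling, a count filter, a length limit, other promoter definitions and leaving out libraries.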

Additional observations from a re-analysis of the deposited data

Results flagged for a closer look

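Of the reported values tested over the 4 WT libraries, 14 (8.14%) had a highest or lowest library farther from the nearest other than Dixon's 95% limit, where chance gives about 1 in 20. WT3 was set apart and high in the median density of intergenic peaks (4.94 CPM per kb) and of peaks at 5 to 10 kb (5.20) and 10 to 50 kb (4.92) from a start, and low at Bcl11a (18.3). WT4 was high at Dnpep (199.6 CPM per kb), Cic (183) and the intergenic Zfp78 peak (126), and low at Gata1 (1.91) and Tbx21 (3.44). WT1 was high in the summed CPM of Runx1 (635) and in the CPM outside promoters of Gse1 (894). WT2 was high at S100a8 (5.02 CPM per kb), and low at Cr2 (22.3) and in the median promoter density of the multipotent progenitor list (24.9).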

How the results depend on the processing

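TMM scaling multiplies a library by 1 factor and so cannot change a share or ratio within it. Leaving out each library in turn changed no direction: the promoter share of counts stayed between 41.2% and 41.6%, promoter over intron between 3.56 and 3.71, and the stem cell list over all genes between 1.02 and 1.06 at promoters and between 8.27 and 8.35 outside them. Without peaks of mean count under 20, promoter over intron was 3.30 and over intergenic 3.35, 0 to 0.1 kb over beyond 100 kb 5.20, the stem cell ratio outside promoters 8.65 and the erythroid promoter ratio 0.328. With peaks of 300 to 1000 bp alone, the promoter share was 29.6%, these 3 ratios 2.75, 2.69 and 5.41, and the list ratios outside promoters 8.75 (stem cell), 2.00 (myeloid), 2.87 (erythroid), 3.73 (megakaryocyte) and 4.08 (lymphoid priming). The promoter ratios were then 0.388 (myeloid), 0.975 (erythroid), 0.873 (megakaryocyte) and 0.406 (lymphoid priming), and the multipotent progenitor ratio turned to 0.878. This limit leaves 9 erythroid, 6 megakaryocyte and 2 multipotent progenitor members. Summing a gene's promoter peaks gave 0.904 for the stem cell list, which turned, and 0.257 for the erythroid list. An annotated distance within 1 kb gave 0.696 (stem cell, turned), 0.380 (erythroid) and 0.474 (lymphoid priming). Any class at a start, an alternative chosen after seeing the data, gave 0.436 (erythroid) and 0.484 (lymphoid priming). Without division by length, promoter over intron was 6.92 and over intergenic 7.04. Beyond these definitions the cause of the turned ratios was not tested. No paired analysis was possible because 1 group was described and no groups were compared. The 22362 peaks with a mean count under 20 have the least depth and were left out of the spread between libraries.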
